A study of Mus musculus with 8 samples.

Results

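The comparison described here sets the left hippocampi of trained Cav3.2 knockout mice (KTL) against those of naive wild-type mice (WNL). It was taken by group label, with 2 arrays in each group, so it covers 4 of the 8 arrays of the series. The other arrays are 2 of trained wild-type mice (WTL) and 2 of naive knockout mice (KNL), which enter the estimate of the spread and stand beside the results. All mice were males of 6 to 8 weeks on the C57BL/6 background. The knockouts were homozygous for a constitutive deletion in Cacna1h (allele Cacna1h tm1Kcam), which removes Cav3.2 from all tissues and ages, and their line had been bred to C57/BL6 for several generations through heterozygotes. The methods call the wild-type mice purchased C57BL/6J animals in one place and littermates in another. Trained mice were accustomed to a conditioning chamber, given trials in which a tone was followed after a gap by a foot shock (trace fear conditioning, TFC), and killed straight after a test of memory in the same chamber a day later. Naive mice had no treatment, so KTL and WNL differ in genotype, training, handling and the memory test, and the parts of these in a difference cannot be told apart here. Each RNA was pooled from the left hippocampi of 3 mice. The methods give RNA of 3 mice for each group and mention averaged technical replicates, and do not say outright whether the 2 arrays of a group held separate pools. The p-values thus measure the spread between arrays, which may be technical.

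Cacna1h encodes the pore-forming subunit of Cav3.2, a T-type calcium channel that opens near the resting potential and lets calcium into neurons of the hippocampus. A dissected hippocampus also carries other tissue, above all the choroid plexus of the lateral ventricle, a sheet of epithelium that secretes cerebrospinal fluid and makes transthyretin, folate receptor and a set of ion channels in amounts that neurons do not. Of the 5 named genes with a probe called here, 3 (Folr1, Kcne2 and Ecrg4) are known from that epithelium.

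KTL and WNL were close over most of the transcriptome. Of 16588 probes with values, 7 (0.0422%) were called by limma, that is, had a Benjamini-Hochberg adjusted p under 0.01 over all probes and a change over 2-fold. Of these, 6 (0.0362%) were lower in KTL and 1 (0.00603%) was higher. At an adjusted p under 0.05 with the same fold, 18 probes (0.109%) passed, 16 of them lower (0.0965%) and 2 higher (0.0121%). The significance analysis of microarrays (SAM), the test of the methods, called the same 6 lower probes at a q under 0.01 and no higher one. SAM used only the 4 arrays of this comparison, which allow 6 splits, so its q values are coarse. On those 4 arrays alone limma called 0 probes. Changes were small at most probes, with a median absolute log2 difference between group means of 0.157 and 96.4% of probes within 1.5-fold. A KTL array and a WNL array differed by a median of 0.185 to 0.203 on the log2 scale, against 0.176 between the 2 WNL arrays and 0.128 between the 2 KTL arrays. At unadjusted p under 0.05, 1913 probes passed, and the KTL and WNL arrays did not overlap at 44.6% of probes, so non-overlap of 2 against 2 arrays was common.

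**Figure D1:**
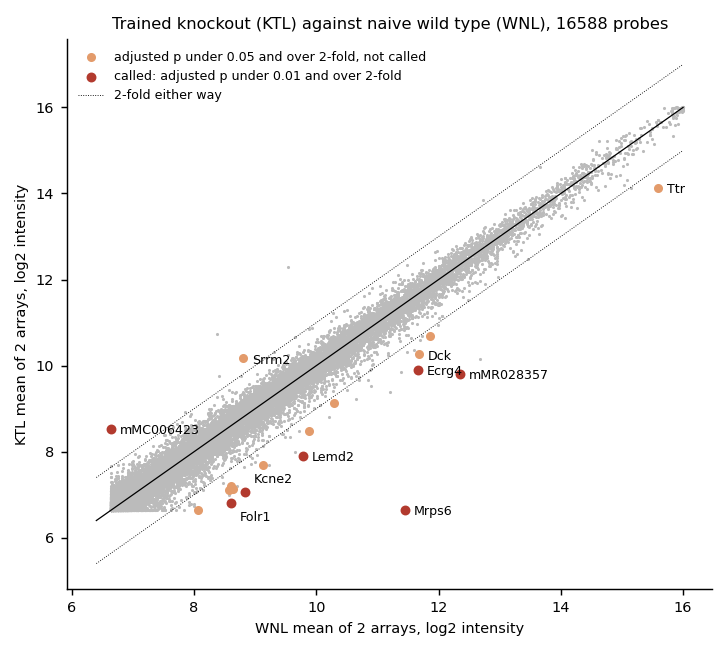
Mean log2 intensity of the 2 KTL arrays (y) against that of the 2 WNL arrays (x) for 16588 probes; the solid line marks equality, dotted lines 2-fold. The 6 probes called lower and the 1 called higher are red, and Mrps6 lies farthest from the line, at the floor in KTL.

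The 2 KNL arrays stood apart from all others, with Pearson correlations over probes of 0.852 to 0.938 against arrays of other groups, while all remaining pairs lay between 0.968 and 0.993. They take no part in the difference of KTL and WNL but supply degrees of freedom. Without them, on 6 arrays, limma called 0 probes and 2 passed the adjusted p of 0.05, which were Mrps6 (adjusted p = 0.0135) and mMR028357 (adjusted p = 0.0455). The count of called probes was also small whenever 1 array was left out. It was 0 without KTL replicate 1, KTL replicate 2, KNL replicate 1 or KNL replicate 2, 1 without WNL replicate 1, WTL replicate 1 or WTL replicate 2, and 3 without WNL replicate 2. The log2 change of Mrps6 itself stayed between -4.96 and -4.65 in these fits.

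For the targeted gene itself, Cacna1h (probe mMC010128, chromosome 17), the intensities were 2732 and 2985 in WNL and 1171 and 1395 in KTL. Both KTL arrays were below both WNL arrays. The log2 change was -1.16 (SE 0.25, 95% interval -1.76 to -0.56), which limma did not call (adjusted p = 0.187). WTL arrays read 2836 and 1838 and KNL arrays 1929 and 1377, so the signal stayed well above the floor of 100 in every group. Whether the probe lies inside the deleted part is not given in the sources used here, so the level is not a check of the label. None of the other 17 measured voltage-gated calcium channel genes passed the threshold either. The list of 18, Cacna1h included, had a median log2 change of -0.07. At unadjusted p under 0.05, 4 members were higher and 1 was lower, which was Cacna1h itself. Over all 11136 genes, 567 were lower and 690 higher at that unadjusted p, the background for such counts in the lists below. Cacna2d3, an auxiliary subunit and one of the brighter members of the calcium channel list, had a log2 change of 0.19 (adjusted p = 0.690).

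Mrps6, which encodes a protein of the small subunit of the mitochondrial ribosome, changed most. Its probe (mMC026021, chromosome 16) read 3112 and 2518 in WNL, 2649 and 2471 in WTL, 1221 and 1449 in KNL, and lay at the floor of 100 on both KTL arrays. The wild-type arrays were thus all high, the naive knockout arrays in between, and the trained knockout arrays at the floor. Against the floor this was at least 28.0-fold lower in KTL than in WNL (log2 change -4.81, SE 0.14, limma adjusted p = 0.000312). The bound is tied to the floor, since the log2 change was -3.81 with a floor of 200 and -8.23 with none. Among the 65 measured genes of mitochondrial ribosomal proteins no other was called. Their median log2 change was 0.07, with 47 positive and 18 negative. Mrpl18, of the large subunit, had the next lowest value, -1.82, but its 2 KTL arrays read 2058 and 219 and the SE was 0.96.

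Kcne2 lies next to Mrps6 in the order of measured genes on chromosome 16. It encodes a small accessory subunit of voltage-gated potassium channels and is abundant in choroid plexus epithelium. Its intensities (mMC013650) were 432 and 482 in WNL, 470 and 447 in WTL, 384 and 358 in KNL, and 131 and 137 in KTL. KTL alone was low, with a log2 change of -1.77 against WNL (SE 0.11, limma adjusted p = 0.00775) and -1.78 against WTL (adjusted p = 0.00668). Of 16 measured genes of KCNE subunits and the channels they join, Kcne2 was the only one called. Kcnh2, a channel alpha subunit, had the third lowest change, -0.33.

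The starts of these neighboring genes are shown because both were called and they share a stretch of chromosome. Each is 1 window of 300 bases from 250 before to 50 after the annotated start, taken from RefSeq on GRCm38.p6, on the plus strand, and capitals mark the GC box GGGCGG on either strand (CCGCCC on the other).
Mrps6, chr16:92058086-92058385: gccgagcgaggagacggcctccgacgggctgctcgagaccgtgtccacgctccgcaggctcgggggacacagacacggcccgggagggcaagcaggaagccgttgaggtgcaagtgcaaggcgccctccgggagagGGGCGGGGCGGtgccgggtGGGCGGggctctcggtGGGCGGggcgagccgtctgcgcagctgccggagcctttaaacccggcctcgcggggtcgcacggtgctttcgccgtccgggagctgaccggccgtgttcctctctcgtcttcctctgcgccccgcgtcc
Kcne2, chr16:92292139-92292438: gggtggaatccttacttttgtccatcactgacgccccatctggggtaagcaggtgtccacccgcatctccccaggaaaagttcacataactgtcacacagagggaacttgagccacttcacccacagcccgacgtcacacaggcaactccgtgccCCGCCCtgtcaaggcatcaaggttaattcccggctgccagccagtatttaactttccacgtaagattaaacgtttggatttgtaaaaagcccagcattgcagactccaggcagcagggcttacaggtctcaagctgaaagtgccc

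The Mrps6 window held 4 GC boxes, of which the first and second overlap, and was 73.7% G and C. The Kcne2 window held 1 and was 53.0% G and C, and it is the first of 2 windows listed for that gene. GGGCGG on either strand occurs in 35.7% of the 32851 windows of the table. The core that OTX homeobox proteins bind, TAATCC or GGATTA on the other strand, was in neither window and occurs in 7.06% of all windows. These are matches of letters and were not tied to any measurement.

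Among the remaining called probes, Folr1 and Ecrg4 also belong to the choroid plexus. Folr1 encodes folate receptor alpha, which carries folate across that epithelium. It read 384 and 390 in WNL, 344 and 292 in WTL, 324 and 293 in KNL, and 113 and 110 in KTL (mMC009482, chromosome 7), a log2 change of -1.79 against WNL (SE 0.12, limma adjusted p = 0.00775). Ecrg4, listed on the array as 1500015O10Rik, encodes the secreted augurin precursor. It read 3122 and 3333 in WNL, 2769 and 2374 in WTL, 1749 and 1809 in KNL, and 952 and 966 in KTL (mMC010287, chromosome 1), a change of -1.75 (SE 0.11, adjusted p = 0.00775). For both genes the KTL arrays were the lowest of the 8, near the floor for Folr1 and far above it for Ecrg4. With a floor of 200 the Folr1 change shrank to -0.95 and was not called.

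**Figure D2:**
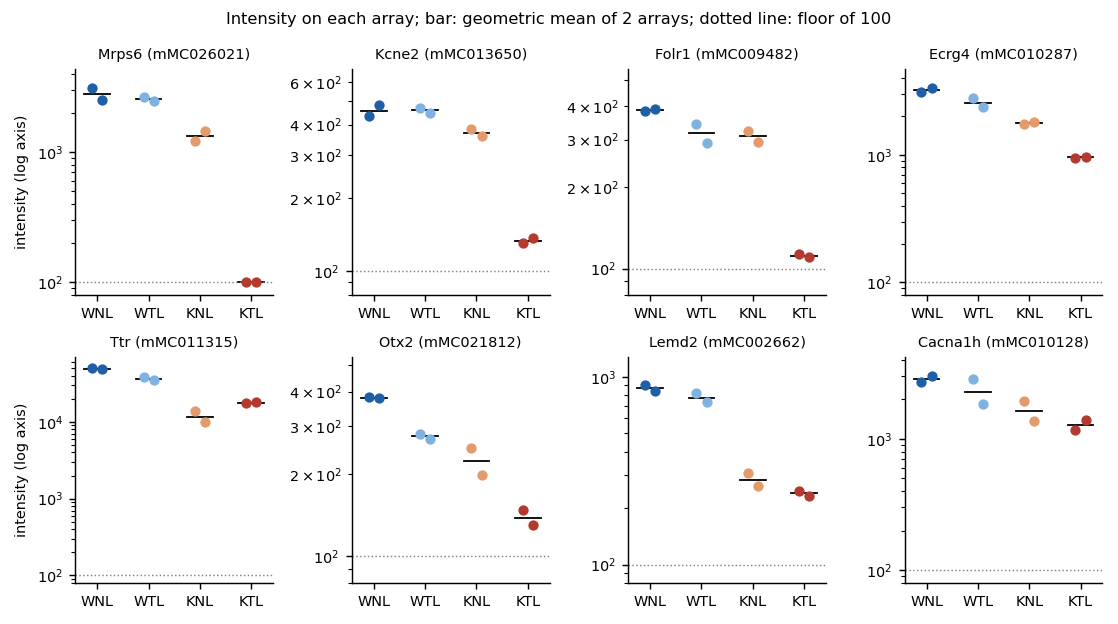
Intensity (log axis) of 8 probes on each of the 8 arrays, as points by group, with a bar at the geometric mean of 2 arrays and the floor of 100 dotted. The KTL mean is lowest for Mrps6, Kcne2, Folr1, Ecrg4, Otx2, Lemd2 and Cacna1h, while for Ttr the KNL arrays (13737 and 10093) lie below KTL.

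Lemd2, which encodes a LEM-domain protein of the inner nuclear membrane and lies on chromosome 17 as Cacna1h does, gave 2 readings. Probe mMC002662 fell from 908 and 845 in WNL to 248 and 232 in KTL (log2 change -1.87, SE 0.13, limma adjusted p = 0.00775), and it was low in KNL as well, at 308 and 262. Probe mMR026578 of the same gene read 896 and 840 in WNL and 862 and 852 in KTL, a change of -0.02 (SE 0.12, adjusted p = 0.995). The probes thus disagreed, and no direction is given for the gene. The 16 measured genes of the nuclear envelope list, where Lemd2 stands by its brighter probe, had 0 members called by limma, a median change of 0.04, and 1 lower and 1 higher at unadjusted p under 0.05.

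The other called probes carry no gene symbol. mMR028357 read 5086 and 5381 in WNL, 3832 and 3991 in WTL, 313 and 344 in KNL, and 966 and 836 in KTL. Both knockout groups were low and KNL lowest (KTL against WNL -2.54, SE 0.12, limma adjusted p = 0.00239). mMC006423, the only one called higher, was at the floor on both WNL arrays and read 381 and 360 in KTL, at least 3.70-fold higher (log2 change 1.89, SE 0.12, adjusted p = 0.00775). It read 250 and 220 in WTL and 470 and 400 in KNL, so WNL alone was at the floor, and the change was 0.89 with a floor of 200 and 2.75 with none.

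Further probes passed an adjusted p of 0.05 and 2-fold but were not called. Ttr, transthyretin, the thyroxine carrier that the choroid plexus secretes, was among the brightest probes. It read 49816 and 49065 in WNL, 38255 and 35240 in WTL, 13737 and 10093 in KNL, and 17442 and 18438 in KTL, a log2 change of -1.46 for KTL against WNL (SE 0.16, limma adjusted p = 0.0498). Both knockout groups were below both wild-type groups. Otx2, a homeobox factor required for choroid plexus development, read 382 and 379 in WNL and 148 and 130 in KTL (-1.46, SE 0.14, adjusted p = 0.0370).

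A probe of Cldn2 (mMR029342), a tight-junction claudin of this epithelium, read 251 and 288 in WNL and was at the floor on both KTL arrays, at least 2.69-fold lower (adjusted p = 0.0419). The other, brighter probe of Cldn2 (mMC010824) had a change of 0.32 (SE 0.21, adjusted p = 0.629), so its probes disagreed. Dck, the deoxycytidine kinase of nucleoside salvage, read 3468 and 3106 in WNL and 1177 and 1288 in KTL (-1.41, SE 0.12, adjusted p = 0.0238). Prr32 read 440 and 357 in WNL and 139 and 142 in KTL (adjusted p = 0.0419). Among probes with no gene symbol, mMC015250 was at 588 and 537 in WNL and 214 and 200 in KTL (-1.44), and mMR031210 at 922 and 961 in WNL and 393 and 324 in KTL (-1.40).

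Clcn7 and Prdx2 lie outside the rule for naming genes and were picked after their values were seen. Clcn7, a lysosomal chloride and proton exchanger, read 412 and 371 in WNL and 160 and 137 in KTL (-1.40, adjusted p = 0.0468), with both KNL arrays at the floor. Prdx2, a peroxide-reducing enzyme, was lower on both of its probes (-1.18 and -1.16, adjusted p = 0.0260 and 0.0478). Its probe mMC010520 read 3675 and 3758 in WNL, 1948 and 1771 in WTL and 1684 and 1593 in KTL, so trained wild-type arrays were low too and KTL differed from WTL by only -0.18 (adjusted p = 0.403).

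Srrm2, of nuclear splicing speckles, had the only other probe past the adjusted p of 0.05 in the upward direction. Probe mMC024428 read 472 and 422 in WNL, 381 and 474 in WTL, 887 and 977 in KNL, and 1117 and 1181 in KTL (1.36, SE 0.14, limma adjusted p = 0.0468). Its other probes changed by -0.31 and 0.25 and did not pass. Knockout arrays were thus high on 1 of 3 Srrm2 probes.

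The choroid plexus genes were then taken as a list. Of 38 listed genes, 24 had values. Of these, 3 were called lower (Folr1, Kcne2, Ecrg4) and 5 passed the adjusted p of 0.05 downward, the others being Ttr and Otx2, against 0.0965% of all probes. None passed upward. The list's median log2 change was -0.80, while that of all 11136 genes was 0.01. It had 22 negative and 2 positive members, and in the 22 negative ones both KTL arrays were below both WNL arrays, as was the case for 19.3% of all probes. The list was drawn up with earlier results of these data known, so these counts are a description. Members that did not pass included Slc13a4, a sulfate transporter (-1.55, adjusted p = 0.0546), Clic6, of the chloride intracellular channel family (-1.43, adjusted p = 0.0546), Kl, the klotho gene (-0.96, adjusted p = 0.0930), and Enpp2, which encodes autotaxin (-0.89, adjusted p = 0.0702). Those with a positive value were the brighter Cldn2 probe and Abca4 (0.32, SE 0.23), known best from the retina.

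**Figure D3:**
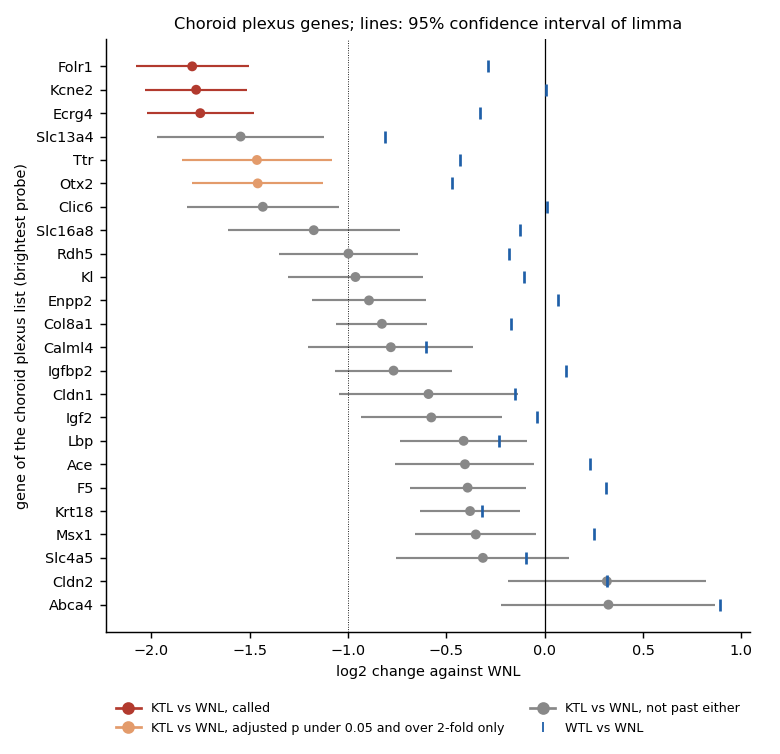
Log2 change against WNL (x) for the 24 measured choroid plexus genes (y), with points and 95% intervals for KTL and blue ticks for WTL. Values for KTL run from -1.79 (Folr1) to 0.32 (Abca4), and 22 of 24 are below 0.

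Members of this list varied across the groups in more than one way. Their median change was -0.72 in KTL against WTL and -0.12 in WTL against WNL, and -0.31 in KNL against WNL. These comparisons share arrays with KTL against WNL. The defining markers measured here (Ttr, Kl, Clic6, Folr1 and Otx2) summed to 54110 and 52870 in WNL, 41710 and 39330 in WTL, 17000 and 13050 in KNL, and 19220 and 20070 in KTL. Ttr made up most of that sum. Without it the order of the knockout groups turned, since the remaining markers summed to 4297 and 3806 in WNL, 3456 and 4093 in WTL, 3260 and 2960 in KNL, and 1774 and 1631 in KTL, the lowest group. No defining marker was at the floor on any array. In bulk tissue, fewer choroid plexus cells and less RNA per cell cannot be told apart, and how much plexus each dissection carried was not tested.

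Leptomeningeal and fibroblast genes, of the membranes that adjoin the plexus, had 0 of 17 measured members called by limma. Their median was -0.30 and 16 were negative. At unadjusted p under 0.05, 8 of the 17 were lower and 0 higher, against 567 lower and 690 higher of all 11136 genes. Col1a2, a chain of type I collagen picked as the lowest member after its value was seen, read 937 and 1054 in WNL and 521 on both KTL arrays (-0.93, adjusted p = 0.252). Ptgds, a prostaglandin synthase, was nearly level (-0.10, adjusted p = 0.774).

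The tissue label was checked with markers of the hippocampus. All 7 (Prox1, C1ql2, Wfs1, Fibcd1, Neurod6, Camk2a and Slc17a7) were measured, and they summed to 38390 and 45460 in WNL and 40410 and 39590 in KTL. Of 24 hippocampal subfield genes 0 were called, the median was -0.01, and 1 was lower and 0 higher at unadjusted p under 0.05. Thalamic and habenular genes (14 measured, median -0.05) and striatal genes (8 measured, median -0.16) had 0 called, with 1 higher at unadjusted p under 0.05 in each. Lists of neurons, interneurons, astrocytes, oligodendrocytes, microglia and endothelial cells had medians between -0.03 and 0.04 and 0 called, with 1 to 3 lower and 0 to 3 higher members each at unadjusted p under 0.05.

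Immediate early genes, which neurons switch on within minutes of activity, had 0 of 37 members called, a median of -0.07, and 3 lower and 1 higher at unadjusted p under 0.05. Fos, the best known of them, had the lowest value, -0.98 (adjusted p = 0.124), and Klf2 the highest, 0.44 (adjusted p = 0.211). Glucocorticoid-responsive genes, which rise after stress, had a median of 0.15 over 26 members with 0 called and 4 higher at unadjusted p under 0.05. Their highest member was Plin4, a lipid-droplet protein, at the floor on both WNL arrays and at 196 and 213 in KTL (1.03, adjusted p = 0.0611).

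**Figure D4:**
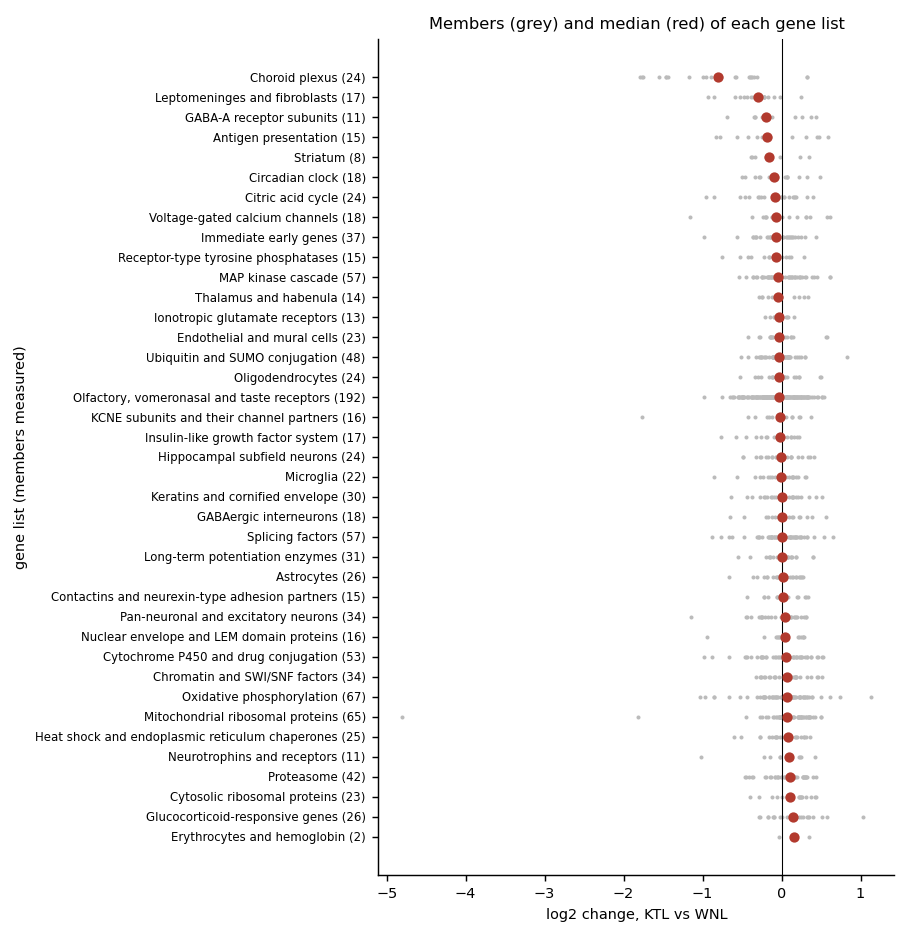
Log2 change of KTL against WNL (x) for each measured member (grey) and the median (red) of 39 gene lists (y, members measured in brackets). The choroid plexus list has the lowest median, -0.80, then leptomeninges, -0.30, and the isolated grey point at -4.81 is Mrps6.

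Lists of signaling and synaptic genes also had no member called. Medians were -0.05 for the MAP kinase cascade (57 genes), 0.01 for enzymes of long-term potentiation (31), -0.03 for ionotropic glutamate receptors (13), -0.20 for GABA-A receptor subunits (11), 0.09 for neurotrophins and their receptors (11), -0.07 for receptor-type tyrosine phosphatases (15) and 0.02 for contactins and adhesion partners (15). At unadjusted p under 0.05 each of these held 0 to 2 lower and 0 to 5 higher members. Metabolic and housekeeping lists lay between -0.09 for the citric acid cycle (24) and 0.11 for cytosolic ribosomal proteins (23), with oxidative phosphorylation (67) at 0.07 and the proteasome (42) at 0.10. Ubiquitin and SUMO conjugation (48) was at -0.03, splicing factors (57) at 0.01, chaperones (25) at 0.08, the circadian clock (18) at -0.09 and chromatin factors (34) at 0.07. Insulin-like growth factor genes (17) were at -0.01 although Igfbp2 (-0.77) and Igf2 (-0.58), both also made in choroid plexus, had their lowest values. In the lists from the citric acid cycle on and in those named next, 0 to 7 members were lower and 0 to 6 higher at unadjusted p under 0.05. The citric acid cycle had 5 lower and 0 higher of 24, and oxidative phosphorylation 7 lower and 6 higher of 67. The mitochondrial ribosomal proteins described above had 2 lower and 9 higher of 65. Antigen presentation (15) was at -0.18, hemoglobin and erythrocyte genes (2) at 0.16, olfactory, vomeronasal and taste receptors (192) at -0.03, keratins (30) at 0.00 and cytochrome P450 and conjugation genes (53) at 0.05.

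The genes around Cacna1h were examined because the flank of a targeted gene stays linked to it through backcrossing. Of 313 measured genes in the 200 on each side (113 before, where chromosome 17 begins, and 200 after), 0 were called by limma on their brightest probe, 1 passed the adjusted p of 0.05 upward (Srrm2, 50 genes before) and 1 downward (Clcn7, 5 genes before). Lemd2, 40 genes after Cacna1h, counts here by its brighter probe, which was not called, while its other probe mMC002662 was (-1.87, adjusted p = 0.00775). The median of the 313 genes was 0.01, as for all genes. At unadjusted p under 0.05, 32 of them were higher and 21 lower, against 690 higher and 567 lower of all 11136 genes. The 5 others with an adjusted p under 0.1, which lie outside the rule for naming genes and were picked after their values were seen, were Zfp758, Bricd5, Glo1, H2-Aa and Rnf5. Bricd5 read 153 and 100 in WNL, 377 and 368 in KNL, and 326 and 426 in KTL (1.59, adjusted p = 0.0746). Glo1, glyoxalase of methylglyoxal detoxification, read 13557 and 12216 in WNL, 25683 and 26046 in KNL, and 26387 and 23761 in KTL (0.96, adjusted p = 0.0611). Zfp758 was lower in the knockouts, at 492 and 487 in WNL, 217 and 212 in KNL, and 221 and 201 in KTL (-1.21, adjusted p = 0.0546). In these 3 genes KNL and KTL lay on the same side of both wild-type groups. H2-Aa, of antigen presentation, was low in KTL (-0.83, adjusted p = 0.0611) but changed by -0.16 in KNL against WNL (adjusted p = 0.196). Rnf5, a ubiquitin ligase, was higher in KTL (0.89, adjusted p = 0.0683) and in KNL (1.01), and also in WTL (0.63). Whether the flank itself differs between the strains was not tested.

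**Figure D5:**
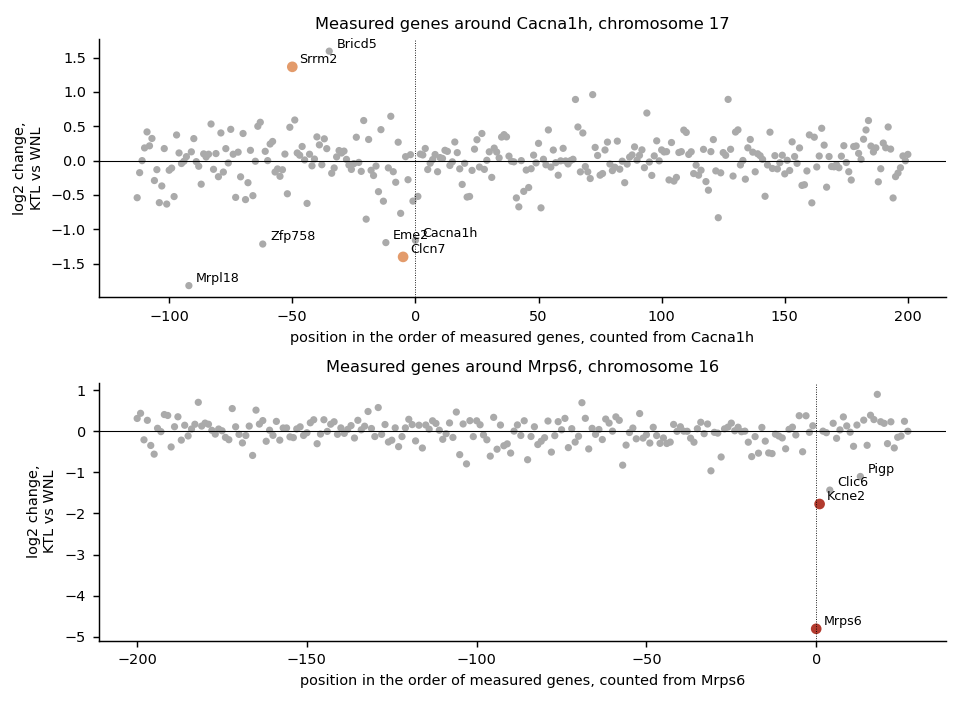
Log2 change of KTL against WNL (y) by place in the order of measured genes (x), around Cacna1h on chromosome 17 and around Mrps6 on chromosome 16; red points were called and orange points passed an adjusted p of 0.05 and 2-fold. Kcne2 (-1.77) is next to Mrps6 and Clic6 (-1.43) 4 genes on.

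Around Mrps6, 227 genes had values (200 before and 27 after), and 1 was called, Kcne2. Clic6, the fourth gene on, read 1800 and 1427 in WNL and 609 and 578 in KTL. Across the 8 arrays the probes whose log2 values ran most like those of Mrps6 were Kcne2 (Pearson r 0.992), Folr1 (0.980), Clic6 (0.979), mMR031210 (0.973) and Amdhd2 (0.964), an enzyme of amino sugar metabolism. The points share arrays and pools, the floor values of KTL weigh heavily, and these r are a description.

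Genes that the study names for trained left hippocampus, other than those above, did not pass the threshold in this comparison. Ptprg, a receptor-type phosphatase, had a log2 change of 0.06 on the only probe that carries its symbol here (mMC002505). That probe was at 0.82 in KTL against WTL. For that comparison the study lists Ptprg fold changes in both directions and calls the gene down. Which probe gave the downward reading was not identified here, so the Ptprg value covers mMC002505 alone. Mark3, a microtubule-affinity kinase, was at -0.30, Cyb561d1 at 0.04, and Ss18, a chromatin-remodeling subunit, at -0.44 and 0.12 on its probes. Mark3 read 660 and 589 in WNL, 201 and 227 in WTL, and 445 and 574 in KTL. For Mark3, Cyb561d1 and a probe of Ss18 (mMR027493) both WTL arrays were thus lower than both WNL and both KTL arrays.

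The comparisons that share arrays with this one gave 4 called probes for KTL against WTL (0.0241%), all lower, 0 for WTL against WNL (0%, with 1 past the adjusted p of 0.05, or 0.00603%, and 2506 at unadjusted p under 0.05 by limma), 3383 for KNL against WNL (20.4%) and 3332 for KTL against KNL (20.1%). The 4 of KTL against WTL were Mrps6 (-4.68), mMR028357 (-2.12), mMC015250 (-1.85) and Kcne2 (-1.78). Against naive wild type, the same probes were at -4.81, -2.54, -1.44 and -1.77 in KTL and at -1.07, -3.99, -1.86 and -0.30 in KNL. Mrps6 and Kcne2 were thus lower in KTL than in KNL, whereas mMR028357 and mMC015250 were lower in KNL.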

How the data were processed

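Total RNA of left hippocampi pooled from 3 mice was amplified, labeled with Cy5 and hybridized by the authors to the Mouse Whole Genome OneArray, a single-color array of 70-base probes. The methods state a floor and quantile normalization. The table the authors deposited gives each probe's intensity, not yet on a log scale, and values in it reached below the stated floor (lowest 7.23), so a floor of 100 and quantile normalization were applied here before log2. Array medians were 481 to 482. Of 29922 probes, 13334 blank on all arrays were left out, and 6.64% to 6.86% of the remaining 16588 lay at the floor of an array, which limits what can be measured of dim probes. The number of arrays limits the precision.

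The 8 arrays were fitted together with limma 3.58.1 (R 4.3.3), each group having its own mean, with moderated spread (4 residual and 2.45 prior degrees of freedom), and Benjamini-Hochberg adjustment over all probes. SAM was run over all 6 splits of 4 arrays. Scripts were tested on simulated data. Probe symbols came from the platform annotation and were updated through RefSeq: 13183 probes had 1 symbol, 11057 of them current, 2099 older and 27 kept, and 3405 had none. A gene of a list is represented by its brightest probe.

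Genes were named by rule: Cacna1h, all called genes, then those past an adjusted p of 0.05 up to 12 a direction, genes the study names, called or else the 2 brightest members of lists, called neighbors, and 5 probes most like Mrps6. Other list members and neighbors given with values were picked after their values were seen. The members and lists were chosen with earlier results of these data known. Alternatives changed the floor, normalization, filter, test, block and arrays. Right hippocampi are not analysed here.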

Additional observations from a re-analysis of the deposited data

Results flagged for a closer look

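The difference between genotypes in trained mice (KTL against WTL) was compared with that in naive mice (KNL against WNL) by the interaction term of limma, for the named probes and the choroid plexus list. It passed an adjusted p of 0.05 for 32 of 45 probes, against 53.3% of all 16588 probes, and it rests on the 2 KNL arrays that stand apart. Many of the 45 were picked for their change in KTL against WNL or from a list drawn up with earlier results known. The interaction term holds the same KTL and WNL values, so that picking bears on the share, which is a description. Values below are the trained minus the naive genotype difference on the log2 scale.

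Among choroid plexus genes and their like, the trained difference was below the naive one for Kcne2 (-1.48), Cldn2 (mMR029342, -1.26), Folr1 (-1.18), Clic6 (-1.07), Ecrg4 (-0.56), Slc16a8 (-1.13), Igfbp2 (-1.39), Igf2 (-0.78), Ace (-0.91), F5 (-1.46), Msx1 (-1.36), Slc4a5 (-1.11) and Abca4 (-1.89). It was the less negative for Ttr (1.04), Slc13a4 (0.94), Enpp2 (1.17) and Calml4 (0.76). Members of 1 list thus differed in the sign of this value. The naive genotype difference itself was positive for Slc16a8 (0.09), Igfbp2 (0.51), Igf2 (0.24), Ace (0.28), F5 (0.75), Msx1 (0.76), Slc4a5 (0.90) and Abca4 (1.32). For these genes the trained difference was negative, so the direction turned. For the other genes named in this paragraph both differences were negative.

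Elsewhere the value was negative for Mrps6 (-3.60), mMC006423 (-1.46), mMR031210 (-1.38), Dck (-0.50) and Amdhd2 (-0.48). It was positive for mMR028357 (1.87), Clcn7 (0.61), Prdx2 (0.45 and 1.42 on its probes), Lemd2 (mMR026578, 1.03), Ss18 (2.85 and 0.48), Mark3 (2.47), Cyb561d1 (2.56) and Ptprg (1.30).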

How the results depend on the processing

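The direction of all 7 called probes held under all 21 settings tried, but no call held under all of them. In many settings the direction could not change. SAM, the test against 2-fold, the intensity trend, the replicate block and the mean filter all use the same KTL and WNL means. Leaving out a WTL or KNL array reaches those means only through the normalization. The count of called probes stayed at 7 (1 higher, 6 lower) without the quantile normalization applied here, with cyclic loess and with median centring. Among probes with a mean above 200 it was 8 (1 higher, 7 lower). The floor moved the sizes of probes near it: over all settings the log2 change ran from -8.23 to -3.81 for Mrps6, -1.85 to -1.19 for Kcne2, -1.81 to -0.95 for Folr1 and 0.89 to 2.75 for mMC006423. Called probes numbered 12 with a floor of 50 (2 higher, 10 lower, 33 past adjusted p 0.05), 2 with a floor of 200 (0 higher, 2 lower), 11 with no floor (2 higher, 35 past 0.05) and 3 with an intensity trend (0 higher, 3 lower). The limma test against 2-fold was read at the looser adjusted p under 0.05, where 2 probes passed (0 higher, 2 lower). Called probes numbered 0 on the 4 arrays alone (0 past 0.05) and 0 on 6 arrays without KNL (2 past 0.05), where fewer arrays estimate the spread. SAM gave 0 higher and 34 past a q of 0.05. Leaving out 1 array gave 0 to 3 called, 0 to 2 higher, 0 to 1 lower and 1 to 8 past 0.05. Mrps6 stayed called in 15 of 21 settings and mMR028357 in 10. The 10 include the limma test against 2-fold, where mMR028357 passed only the looser threshold (adjusted p = 0.0282). mMC015250 was called (adjusted p = 0.00848) among probes with a mean above 200.

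The labels give replicate numbers and do not say whether they pair samples across groups. Same-numbered deviations of KTL and WNL correlated at 0.0827 and those of other group pairs at -0.249 to 0.432. With 2 arrays in a group, these values cannot show whether same-numbered arrays share a batch. With the replicate block 1 probe was called in KTL against WNL (0 higher, 1 lower, 8 past 0.05) and 1 in KTL against WTL. Settings for the other comparisons were added after seeing the data. For KTL against WTL counts were 10 with a floor of 50, 8 with none, 2 with a trend, 0 without KNL and 0 to 12 with an array left out. A floor of 200 gave 1819 for KNL against WNL and 1606 for KTL against KNL, and leaving out an array gave 1400 to 3423 and 930 to 3379, and 0 to 9 for WTL against WNL.

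The choroid plexus median stayed between -0.98 and -0.68 in 19 settings added after seeing the data, with 0 to 10 members past adjusted p 0.05, all lower. The causes of these shifts were not tested.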

Other observations

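Of the 70 probes over 2-fold between KTL and WNL, some owed their size to 1 array of a pair. They were picked after their values were seen. Ube2l3, a ubiquitin-conjugating enzyme, read 100 and 5492 in WNL and 4871 and 5226 in KTL, the largest positive change (2.77, SE 1.61, limma adjusted p = 0.578). Acot13, a mitochondrial thioesterase, read 5572 and 7699 in WNL and 175 and 7423 in KTL (-2.52, SE 1.52, adjusted p = 0.592). Cox5a, a subunit of cytochrome c oxidase, read 2617 and 17481 in WNL and 12980 and 16937 in KTL (1.13, adjusted p = 0.658). Means of 2 arrays at such probes follow the single low reading.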
